A study of Mus musculus with 10 samples.

Results

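The genes whose symbols begin with Psma, Psmb, Psmc, Psmd or Psme are the subject of these measurements. They encode the proteasome, its regulatory particle and its activators. Of the 46 protein-coding mouse genes so named in RefSeq, 43 had a probe set annotated to that symbol alone, among 12393 genes measured in this way, and each was followed by its brightest such probe set. Psmb11, Psme2 and Psme2b had none, and the only probe set for Psme2, the partner of Psme1, also carried the symbol Psme2b. The 43 genes comprised 8 of the alpha ring, 7 of the beta ring, 6 ATPases, 11 other subunits of the regulatory particle, 3 chaperones of the ATPase ring, 3 activators and 3 immunosubunits. Psmc3ip and Psme3ip1 share the naming but encode no subunit and were described apart. The 32 genes of the alpha and beta rings, the ATPases and the other regulatory subunits are called standard subunits below.

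RNA came from the ventricles of nontransgenic mice (NTG, 3 arrays), of mice with the alpha-TM175 transgene (TM175, 3 arrays) and of mice with the alpha-TM180 transgene (TM180, 4 arrays). Alpha-tropomyosin is the coiled-coil protein of the sarcomeric thin filament, and the series concerns mild and severe forms of cardiac hypertrophy, of which, from background knowledge, the severe form belongs to TM180 and the mild form to TM175. In each genotype 1 array, numbered last, carried RNA pooled from 20 hearts and the others carried 1 extract each, so that 3 arrays were pooled and 7 individual. Age, sex, strain, the promoter of the transgenes and whether a pool contained the individually measured hearts are not given in the sources used here, and the p-values measure the spread between these extracts.

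The proteasome degrades proteins marked with ubiquitin. Its barrel-shaped core has outer rings of alpha subunits, which gate the entrance, and inner rings of beta subunits, of which Psmb5, Psmb6 and Psmb7 carry the proteolytic sites. The regulatory particle binds ubiquitin chains, removes them and unfolds the substrate with a ring of ATPases. Interferon induces Psmb8, Psmb9 and Psmb10, which replace Psmb5, Psmb6 and Psmb7 in the immunoproteasome and favour peptides for MHC class I, and it induces the activator of Psme1 and Psme2. In heart muscle the ubiquitin-proteasome system turns over sarcomeric proteins.

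Values are linear intensities, and differences are log2 differences between group means from limma, in which a probe set was called when its adjusted p over all 22626 probe sets was under 0.05. The median intensity of an array ran from 66.6 to 70.9. Summed markers of cardiomyocytes lay between 50694 and 59129 in every array, a sum carried by 8 of 10 genes, since the scale of Actc1 and Mybpc3 could not be settled and their values were added as written. TM175 array 1 differed from the other individual arrays in some sex-linked genes, with an intensity of 987.6 for Xist and 7.23 for Eif2s3y. Kdm5d was also lowest there among individual arrays, at 33.32, whereas Uty, at 40.04, lay within the range of the others, 37.89 to 50.4. The pools differed as well, with Xist at 414.1 and 393.7 in the TM175 and TM180 pools and at 148.8 in that of NTG. Pooled and individual extracts differed in 5015 probe sets, or 22.2% of those tested (limma with genotype in the model), so further fits included the type of extract as a term, and key differences are given for pools and individual extracts separately. In bulk tissue a lower share of cells of a type and less transcript per cell cannot be told apart.

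Without a covariate no proteasome gene was called in any comparison of genotypes. In TM175 against NTG the limma test called 0 of the 43 genes, with 0.00884% of all probe sets called, and 7 of the 43 had an unadjusted p under 0.05, as did 13% of all probe sets. In TM180 against NTG it called 0 of 43, with 0.504% of all probe sets called and 4 of the 43 at an unadjusted p under 0.05 (9.34% of all probe sets). In TM180 against TM175 it called 0 of 43, with 0% of all probe sets called and again 4 of the 43 at an unadjusted p under 0.05 (13.3% of all probe sets). Once extract type was a term, limma called 1 gene, Psme1, lower in TM180, where 2.01% of all probe sets were called, and 0 were called in TM175 (0.862% of all probe sets) or between the lines (0.0265%). In simulated arrays of the same size, a true difference of 0.5 (log2) was called in 25.4% of cases for TM180 against NTG and in 16.4% for TM175 against NTG, so most differences of that size would be missed. The simulation changed 67 probe sets by 0.5, 67 by 1 and 66 by 2. Since the adjusted p depends on how many probe sets change, its rates need not hold for these data.

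**Figure D1:**
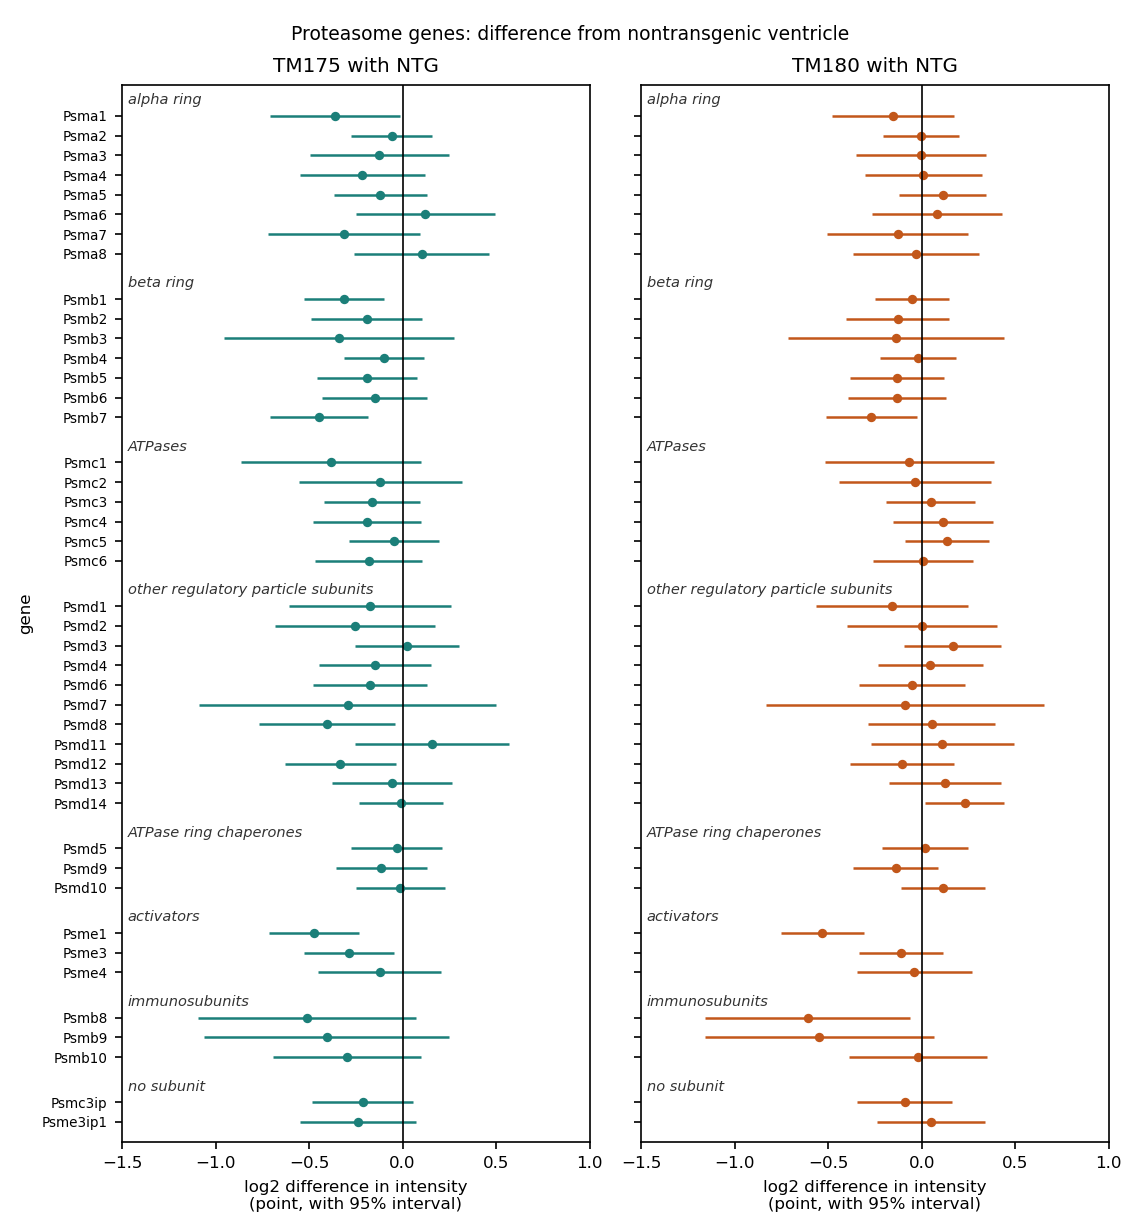
Log2 difference in intensity from NTG for each of the 43 genes, grouped by role, in TM175 (left, 3 arrays) and TM180 (right, 4 arrays), with 95% intervals from limma against 3 NTG arrays. In TM175 39 of the 43 points lie below 0 and in TM180 26 do, and the intervals of Psme1 and Psmb7 lie below 0 in both.

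The arrays of the groups separated for few members. Every TM175 array lay below every NTG array for 5 of the 43 genes (8.94% of all genes) and above for 0 (9.12%). For TM180 this held for 1 gene below, Psme1 (4.21% of all genes), and 1 above, Psmd14 (6.74%). Between the lines TM180 arrays lay wholly above TM175 arrays for 5 members (7.25% of all genes) and wholly below for 0 (7.46%).

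Psme1 showed the clearest difference of the 43 genes. It encodes a subunit of the proteasome activator that opens the core without ubiquitin or ATP. In array order, the NTG intensities were 960.4, 1103 and 1018. Those of TM175 were 676.6, 770.6 and 772.8, and those of TM180 were 805.6, 675.7, 660.2 and 706.5. Every transgenic array, pooled or individual, read below every NTG array. The intensity in TM180 was 0.692 of that in NTG (95% interval 0.593 to 0.808), a log2 difference of -0.53 ± 0.10 (SE), which missed the limma threshold without covariate (adjusted p = 0.0536) and passed it once extract type was a term (adjusted p = 0.0189). In TM175 it was 0.720 of NTG (0.610 to 0.850), with an adjusted p of 0.167 without covariate and 0.0528 with extract type. The log2 difference was -0.51 among individual and -0.40 between pooled extracts for TM175, and -0.53 in both kinds of extract for TM180. The lines did not differ detectably from each other in Psme1 (log2 difference of TM180 from TM175 -0.06 ± 0.10, adjusted p = 0.80).

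Some markers of MHC class II presenting cells were also lower where Psme1 was. The summed intensity of their 7 markers was 1527 to 2409 in NTG, 1040 to 1150 in TM175 and 955 to 1166 in TM180, and none read 0. In TM180 7 of the 7 lay below NTG, and H2-Aa (-1.24, adjusted p = 0.0181) and H2-Ab1 (-0.92, adjusted p = 0.0490), which encode MHC class II chains, were called by limma. In TM175 4 of the 7 lay below NTG and 0 were called, although the same genes, at -1.28 and -1.04, were called there once extract type was a term (adjusted p = 0.0243 and 0.0308). Cd74, the invariant chain, was at -1.03 and -1.04 in TM175 and TM180 (limma adjusted p = 0.182 and 0.0986), and its transgenic arrays lay below all NTG arrays. The 3 that lay above 0 in TM175 were Ciita (0.24), Itgax (0.29) and H2-Eb1 (0.13), and the median of the 7 there was -0.045. The summed markers of lymphocytes ran from 541 to 644 in NTG, 618 to 688 in TM175 and 543 to 592 in TM180, so that both lines overlapped with NTG and TM175 lay above TM180. Those of macrophages overlapped among the groups (3065 to 3609, 2417 to 3588 and 3417 to 3781). Fibroblast markers summed to 4602 to 6906 in NTG, 6639 to 10284 in TM175 and 8410 to 12868 in TM180, with 1 and 3 of the 8 called higher in TM175 and TM180. Endothelial markers summed to 2166 to 2307, 2333 to 3048 and 2419 to 2671. The part of any of these cells in the Psme1 difference was not tested.

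The upstream sequence of Psme1 is shown because it is the gene whose arrays separated both lines from NTG. It lies on the plus strand of GRCm38.p6 (sequence from RefSeq) at chr14:55578244-55578493, ends at the base before the annotated start of Psme1, and contains none of the 7 motifs searched, so that it has no capitals.
Psme1 upstream: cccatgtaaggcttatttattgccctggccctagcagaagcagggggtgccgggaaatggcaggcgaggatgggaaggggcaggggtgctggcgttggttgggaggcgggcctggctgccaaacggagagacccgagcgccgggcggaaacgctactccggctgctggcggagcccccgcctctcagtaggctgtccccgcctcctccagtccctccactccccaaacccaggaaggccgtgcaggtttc
Psme2, its partner in the activator, lies on the same chromosome with only Emc9 annotated between them.

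The other activators are Psme3, a nuclear relative of Psme1, and Psme4, a large activator tied to degradation of acetylated histones. Psme3 read 264.3, 224.2 and 244.4 in NTG, 187.9, 215.3 and 197.7 in TM175 and 246, 238.4, 218.3 and 203.6 in TM180. The TM175 arrays lay below all NTG arrays (log2 difference -0.29 ± 0.11, adjusted p = 0.320, not passed), and the TM180 arrays overlapped with them. Psme4 read 1340, 1277 and 1213 in NTG, 1097, 1261 and 1162 in TM175 and 1226, 1022, 1612 and 1175 in TM180, with overlap in both comparisons and log2 differences of -0.12 and -0.04. A dimmer probe set of Psme4 gave -0.65 in TM175 (adjusted p = 0.167, limma) and -0.35 in TM180 (adjusted p = 0.439), larger than the chosen set gave. The remaining set of Psme4 gave -0.37 in TM175 (limma adjusted p = 0.316) and -0.07 in TM180 (adjusted p = 0.993), also further below 0 than the chosen set.

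The immunosubunits Psmb8, Psmb9 and Psmb10 differed more among NTG arrays than between genotypes. Psmb8 read 153.9, 277.9 and 125.6 in NTG, 107, 104.8 and 165.1 in TM175 and 118.9, 109.6, 104.8 and 126.9 in TM180. Psmb9 read 154.6, 296.4 and 119.5 in NTG, 136.3, 99.35 and 174.4 in TM175 and 129.3, 129.4, 122.7 and 103.1 in TM180. Psmb10 read 561.9, 730.6 and 496.9 in NTG, 411.9, 499.2 and 535.4 in TM175 and 670.9, 652.2, 463.7 and 563.5 in TM180. NTG array 2 was the highest of the 10 arrays for all 3 genes, and the groups overlapped for each of them.

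The log2 differences in TM175 were -0.51 ± 0.26 for Psmb8, -0.40 ± 0.30 for Psmb9 and -0.30 ± 0.18 for Psmb10 (SE, limma adjusted p of 0.427, 0.578 and 0.491). In TM180 they were -0.61 ± 0.25, -0.55 ± 0.28 and -0.02 ± 0.17 (adjusted p of 0.450, 0.617 and 0.999). None passed. Their median was -0.40 in TM175 and -0.55 in TM180, against 0.04 and 0.0027 over all genes, and without NTG array 2 it was -0.14 and -0.17. Among individual extracts the median was -0.88 and -0.75, whereas between the pools it was 0.39 in TM175 and 0.01 in TM180. The pooled TM175 array exceeded the pooled NTG array in all 3 immunosubunits, the reverse of the individual extracts.

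NTG array 2 was also the highest array for the MHC class I genes. Of the 11 measured genes of a list of class I presentation and its inducers, 8 were highest there, against 7.19% of all genes and 0 of the 32 standard subunits. B2m, the light chain of class I molecules, read 2295, 3581 and 2259 in NTG, 1942, 1528 and 2152 in TM175 and 1625, 1990, 1417 and 1975 in TM180, so that every transgenic array lay below every NTG array (adjusted p = 0.343 and 0.264, limma, not passed). Tap1, a subunit of the peptide transporter, read 70.82, 128.4 and 68.64 in NTG, 73.12, 65.75 and 85.7 in TM175 and 65.29, 68.72, 59.27 and 59.45 in TM180. The summed markers of MHC class II presenting cells were likewise highest in NTG array 2, at 2409. Most of this sum was Cd74 (808.3), H2-Aa (648.5) and H2-Ab1 (459.4). Of the 7 markers 4 were highest in NTG array 2, whereas Ciita, Itgax and H2-Eb1 were highest in TM175 arrays. The summed markers of lymphocytes and macrophages were highest in TM175 array 1 and TM180 array 3. The part of any of these cells in the immunosubunit values was not tested.

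Psmb9, Tap1, Psmb8 and Tap2 follow each other in this order on chromosome 17. The upstream sequences of Psmb8 and Psmb9 are shown because the genes share this cluster and the high array. Psmb9 and Tap1 run in opposite directions, and the 225 bases printed for Psmb9 are the whole interval between their annotated starts. Psmb8 is on the plus strand at chr17:34197945-34198194, with a match to the gamma-activated site TTCNNNGAA, bound by STAT factors, in capitals. Psmb9 is on the minus strand at chr17:34187331-34187555, with the reverse of a CCAAT box in capitals (both GRCm38.p6, from RefSeq).
Psmb8 upstream: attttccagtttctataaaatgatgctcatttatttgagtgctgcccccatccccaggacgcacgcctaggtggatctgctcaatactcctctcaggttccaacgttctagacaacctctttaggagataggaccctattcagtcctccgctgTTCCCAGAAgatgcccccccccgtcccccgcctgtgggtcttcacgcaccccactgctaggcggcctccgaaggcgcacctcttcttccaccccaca
Psmb9 upstream: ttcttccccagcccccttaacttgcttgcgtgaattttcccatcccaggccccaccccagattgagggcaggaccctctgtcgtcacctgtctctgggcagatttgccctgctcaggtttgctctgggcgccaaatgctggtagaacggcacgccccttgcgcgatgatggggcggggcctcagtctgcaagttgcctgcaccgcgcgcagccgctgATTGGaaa
Of the 36 proteasome genes with a promoter sequence, only Psmb8 held TTCNNNGAA in its 250 upstream bases, 2.78% of them against 8.13% of 27025 genes.

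**Figure D2:**
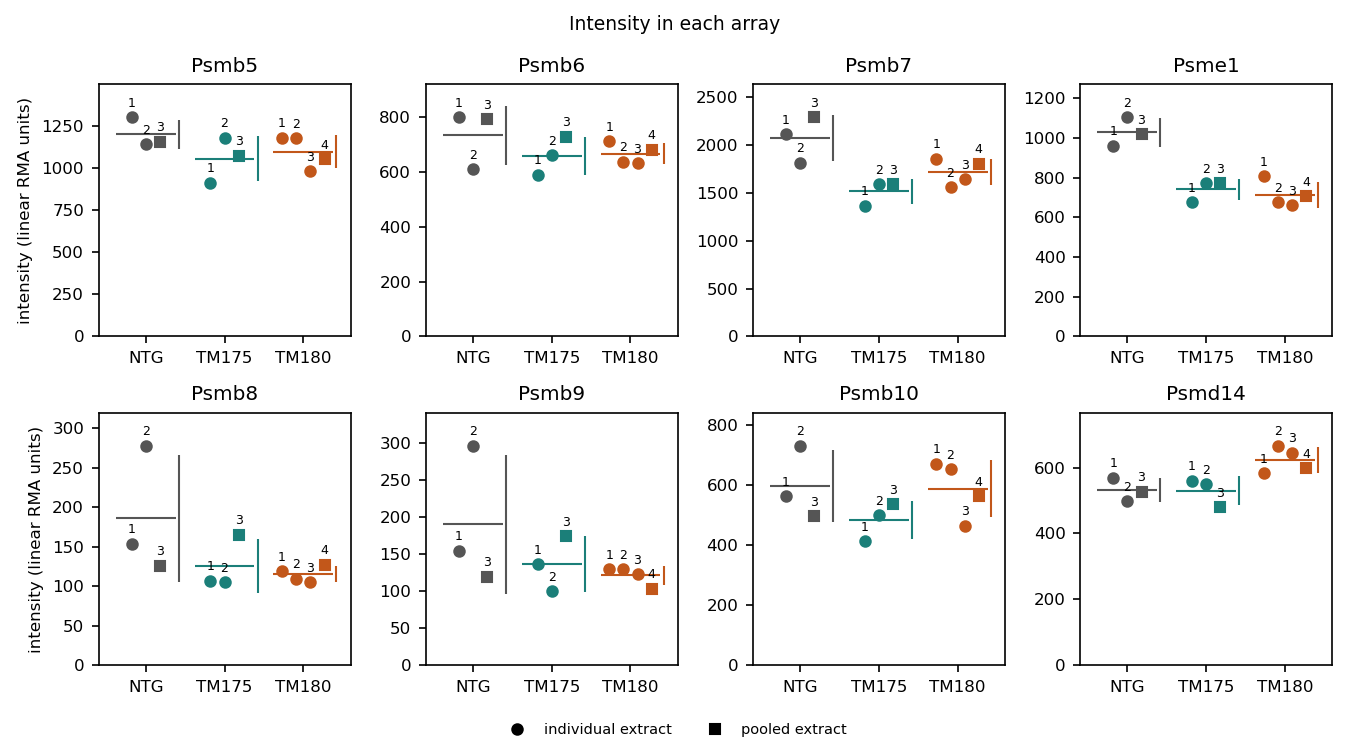
Linear intensity of 8 proteasome genes in each array, by genotype, with the array number above each point, circles for individual and squares for pooled extracts, a line at the group mean and a bar of 1 SD. For Psmb8, Psmb9 and Psmb10 NTG array 2 stands highest, at 277.9, 296.4 and 730.6, whereas for Psme1 all transgenic arrays lie below all NTG arrays.

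The standard catalytic subunits Psmb5, Psmb6 and Psmb7 are the counterparts of the immunosubunits. Psmb5, with the chymotrypsin-like site, read 1301, 1142 and 1157 in NTG, 912.3, 1181 and 1074 in TM175 and 1180, 1176, 981.3 and 1054 in TM180. Psmb6, with the caspase-like site, read 800.1, 611.1 and 794.4 in NTG, 589.9, 661.6 and 728.8 in TM175 and 713.2, 638.7, 631.7 and 682.2 in TM180. The groups overlapped for both, and their log2 differences from NTG lay between -0.19 and -0.13 in both lines (limma adjusted p of 0.517 to 0.914). Psmb7, with the trypsin-like site, read 2110, 1814 and 2287 in NTG, 1364, 1588 and 1592 in TM175 and 1855, 1560, 1643 and 1801 in TM180. All TM175 arrays lay below all NTG arrays, and TM180 overlapped with NTG. Against NTG it differed by -0.45 ± 0.12 in TM175, with a limma adjusted p of 0.201, or 0.0593 with extract type. The TM180 difference was -0.27 ± 0.11 with an adjusted p of 0.461, and neither passed.

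The 7 beta subunits had log2 differences below 0 in both lines, with a median of -0.19 in TM175 and -0.13 in TM180, and none was called. Psmb1, a structural beta subunit, read 777.3, 671.5 and 723.2 in NTG, 546, 599.1 and 601.5 in TM175 and 645.9, 724.9, 699 and 723.8 in TM180. Its TM175 arrays lay below every NTG and every TM180 array (-0.31 ± 0.10 from NTG, limma adjusted p = 0.233). The structural subunits Psmb2 and Psmb3 had values of -0.19 ± 0.13 and -0.34 ± 0.28 in TM175 and of -0.13 ± 0.13 and -0.14 ± 0.26 in TM180, with a wide error for Psmb3. Psmb4, another structural subunit, varied least of all 43 genes, with 1.22 times the lowest array in the highest, and had the smallest difference of the ring in TM180, at -0.02 ± 0.09. Its arrays read 1046, 961.7 and 871.4 in NTG, 860.1, 887 and 935 in TM175 and 945, 950.8, 1000 and 885.5 in TM180.

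In the alpha ring 6 of the 8 genes lay below 0 in TM175 (median -0.12) and 5 of the 8 in TM180 (median -0.0023). The lowest in TM180 was Psma1, which read 362.3, 283.8 and 428.6 in NTG, 290.7, 256.8 and 277.6 in TM175 and 284.1, 282.6, 350.6 and 359.9 in TM180 (log2 differences -0.36 ± 0.16 and -0.15 ± 0.15, limma adjusted p of 0.367 and 0.929). The highest was Psma5, which read 503.8, 411.3 and 502.1 in NTG, 427.7, 426.8 and 444.4 in TM175 and 466.2, 504.2, 493.1 and 576.8 in TM180 (-0.12 and 0.11, adjusted p of 0.666 and 0.926). Both overlapped with NTG in each line, and Psma5 was higher in every TM180 than in every TM175 array. The other alpha subunits of the core, Psma2, Psma3, Psma4, Psma6 and Psma7, differed from NTG by -0.31 (Psma7) to 0.12 (Psma6) in TM175 and by -0.13 to 0.083 (the same genes) in TM180. Psma8, the alpha subunit of the testis, read 15.24 to 25.35 over the 10 arrays, and it and the chaperone Psmd10 were the only members under 50 in every array.

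The 6 ATPases thread the unfolded substrate into the core. All 6 lay below 0 in TM175 (median -0.17) and 2 of the 6 in TM180 (median 0.03), and none was called. Psmc1, whose product helps open the gate of the alpha ring, read 307.5, 194.6 and 292.8 in NTG, 147.5, 203.1 and 263.5 in TM175 and 261.3, 236.9, 222.3 and 275.2 in TM180 (log2 differences -0.38 ± 0.22 and -0.07 ± 0.20, limma adjusted p of 0.470 and 0.998). Psmc5 read 662.6, 618.5 and 652.7 in NTG, 563.5, 691.5 and 625 in TM175 and 781, 740.8, 656.1 and 660.8 in TM180 (-0.05 ± 0.11 and 0.14 ± 0.10, adjusted p of 0.880 and 0.851). The groups overlapped for both genes, and TM175 array 1 gave the lowest value of each. Psmc2, Psmc3, Psmc4 and Psmc6 had values of -0.19 to -0.12 in TM175 and of -0.037 to 0.11 in TM180. Psmc4 had the highest of these TM180 values, and its TM180 arrays lay above all TM175 arrays (0.31 ± 0.12, limma adjusted p = 0.355).

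Of the 11 other regulatory subunits 9 lay below 0 in TM175 (median -0.17) and 4 in TM180 (median 0.05). Psmd14 encodes the deubiquitinase that cuts ubiquitin chains off the substrate. It read 569.6, 498.3 and 526.8 in NTG, 559.9, 548.9 and 478.8 in TM175 and 583.3, 666.1, 645.4 and 598.2 in TM180, so that every TM180 array exceeded every array of the other groups. Against NTG it differed by 0.23 ± 0.10 in TM180 (unadjusted p = 0.0359, limma adjusted p = 0.467, not passed) and -0.01 ± 0.10 in TM175. Psmd1, a scaffold at the base of the particle, had the lowest value in TM180, at -0.16 ± 0.18, and read 444.7, 310.3 and 452.1 in NTG, 311.4, 321.7 and 434 in TM175 and 357.3, 337.7, 294.4 and 450.6 in TM180, with overlap throughout. The lid subunits Psmd8 and Psmd12 had the lowest values in TM175, at -0.40 ± 0.16 and -0.33 ± 0.13 (limma adjusted p of 0.347 and 0.343). The ubiquitin-binding scaffold Psmd2 had -0.25 ± 0.19 in TM175 and 0.0040 in TM180, and Psmd3, a lid subunit, had 0.022 and 0.17. Of the 11, Psmd3 and Psmd11 (0.16 in TM175, 0.11 in TM180) lay above 0 in both lines by their chosen sets. Further probe sets of Psmd11 gave -0.35, -0.20, 0.19, 0.22 and 0.24 in TM175 and -0.00091 to 0.11 in TM180. The lid subunits Psmd6 and Psmd13 had -0.17 and -0.058 in TM175 and -0.051 and 0.13 in TM180.

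Array-to-array variation was of ordinary size for most members. The highest array read 1.53 times the lowest for the median standard subunit and 1.5 times for the median gene, and 29 of the 32 stayed under 2. The widest were Psmb9 (2.98), Psmb8 (2.65) and Psmd7 (2.54).

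The chaperones of the ATPase ring, Psmd5, Psmd9 and Psmd10, assemble the base and are absent from the finished particle. Their log2 differences ran from -0.11 to -0.01 in TM175 and from -0.14 to 0.11 in TM180. Psmc3ip, known from meiotic recombination, and Psme3ip1 had values of -0.21 and -0.24 in TM175 and of -0.09 and 0.05 in TM180, all with overlapping arrays.

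As a group the standard subunits lay lower in TM175 arrays, by a small amount. In TM175 28 of the 32 were below 0, against 41.6% of all genes, with a median of -0.17 against 0.04 over all genes. In TM180 18 of the 32 were below 0 (49.2% of all genes), with a median of -0.01. The members whose TM175 arrays all lay below the NTG arrays were Psmb1, Psmb7, Psmd12, Psme1 and Psme3. The median was -0.21 among individual extracts and -0.12 between pools, and without TM175 array 1, which was the lowest array for 15 of the 32, it was -0.10. Per array, the median deviation of the standard subunits from their mean was -0.22, -0.14 and 0.01 in TM175, 0.01, 0.01, 0.02 and 0.10 in TM180 and 0.19, -0.16 and 0.10 in NTG. NTG array 2 thus read as low as TM175 arrays, and the groups overlapped. The summed red blood cell markers (2 measured) ran from 287 to 297 in TM175, 200 to 230 in NTG and 178 to 198 in TM180, with TM175 above both other groups. Most of this sum was Alas2, at 258.8 to 266.9, 178 to 206.1 and 153.4 to 174. Hba-a1, the other marker, was dim and overlapped among the groups, at 26.18 to 30.05, 21.55 to 26.81 and 23.97 to 26.56. Of the 10 lymphocyte markers, whose sums are given above, 1 lay below 0 in TM175, beside 41.6% of all genes. Several read under the array medians of 66.6 to 70.9, such as Cd3g at 14.08 to 15.41 in NTG and 15.65 to 16.82 in TM175. Cd8a read 23.94 to 28.5 and 30.35 to 31.64, and the brighter Cd3e 199.5 to 230.7 and 239.9 to 255.6. The part of red blood cells and lymphocytes in the subunit values was not tested.

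Other genes of similar brightness shifted in the same direction in TM175. Of the 32 standard subunits 30 had a mean intensity between 200 and 2000. Over all 3125 genes in this range 68.6% lay below 0 in TM175, with a median of -0.11, and 46.7% in TM180, with a median of 0.02. When the arrays were quantile normalized again, 48.0% of these genes lay below 0 in TM175 (median 0.01), and 19 of the 32 standard subunits did (median -0.03).

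**Figure D3:**
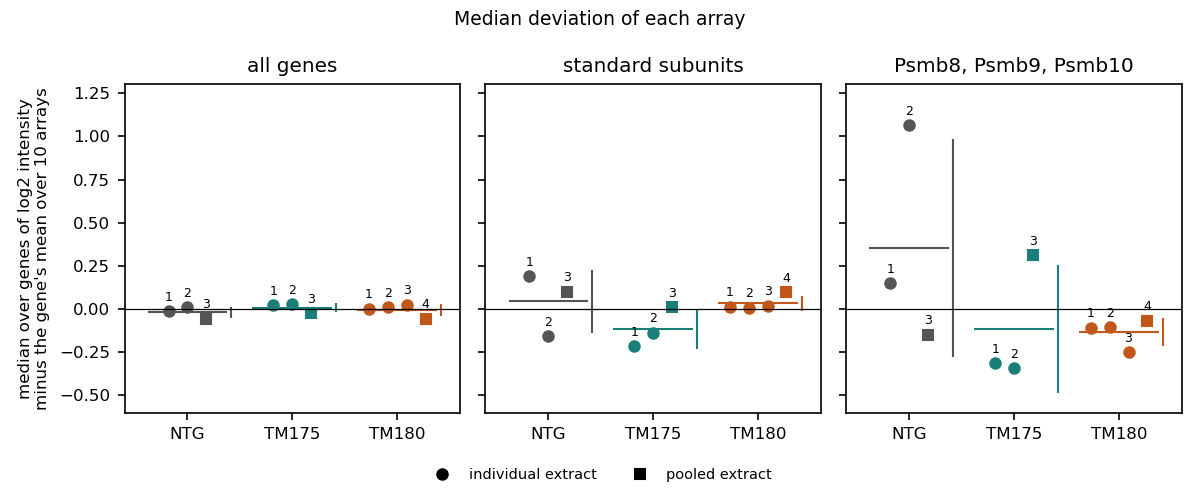
Median over genes of each array's log2 intensity minus the gene's mean over the 10 arrays, for all 12393 genes, the 32 standard subunits and the 3 immunosubunits, with the array number above each point, circles for individual and squares for pooled extracts, a line at the group mean and a bar of 1 SD. All genes stay near 0, the standard subunits run from -0.22 in TM175 array 1 to 0.19 in NTG array 1, and the immunosubunits stand at 1.06 in NTG array 2.

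Between the lines, the standard subunits lay higher in TM180 than in TM175. Of the 32, 3 had a log2 difference below 0 (53.4% of all genes), with a median of 0.18 against -0.02 over all genes, and 20.3% of the genes with intensities between 200 and 2000 lay below 0. After renewed quantile normalization the median was 0.03. Psma5, Psmb1, Psmc4, Psmd14 and Psmd8 were higher in every TM180 than in every TM175 array. The largest difference was that of Psmd8, a lid subunit, which read 359.8, 424.2 and 431.4 in TM175, 574.3, 618, 467.3 and 567.8 in TM180 and 611.3, 412.7 and 603.7 in NTG (0.46 ± 0.15 between the lines, limma adjusted p = 0.315, not passed). NTG arrays overlapped with each line for Psmd8. Both lines were compared with the same NTG arrays in the values above.

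Pooled and individual extracts differed in 6 of the 43 genes. Psmd7, a lid subunit, read 155.7, 199.2 and 190.5 in the TM175, TM180 and NTG pools and 78.41 to 143.3 in the 7 individual arrays, a log2 difference of 0.86 ± 0.15 (limma adjusted p = 0.00218). Every pool therefore lay above every individual array. Psmd11, which stabilises the union of core and regulatory particle, read 1458, 1550 and 1187 in the pools and 949.7 to 1133 in individual arrays (0.43 ± 0.09, adjusted p = 0.00505). Psma3, Psma7 and Psmd1 were also higher in pools, by 0.35, 0.37 and 0.40, and Psme3ip1 was lower, at -0.29 (adjusted p of 0.0211 to 0.0276). The share called, 6 of 43, stands beside 22.2% of all probe sets.

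**Figure D4:**
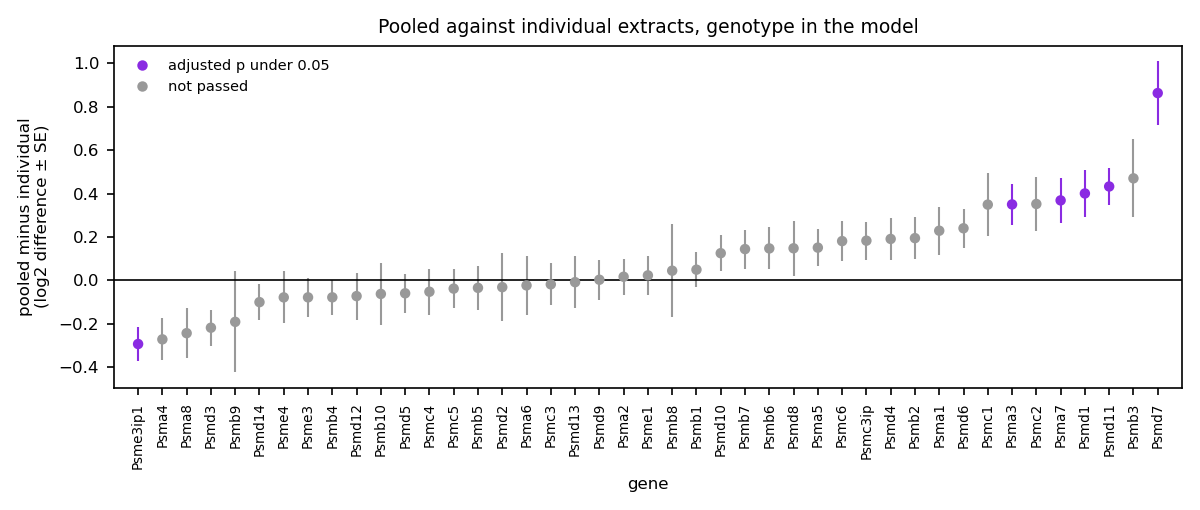
Log2 difference between 3 pooled and 7 individual extracts for each of the 43 genes, with genotype in the limma model, ordered by size, with bars of 1 SE and coloured points for genes called at an adjusted p under 0.05. Psmd7 stands highest at 0.86, and 5 genes were called higher in pools and 1, Psme3ip1, lower, while Psmb3, at 0.47, was not called.

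Further probe sets of the same genes gave a mixed account. Among 32 other settled sets of members, the sign was opposite to that of the chosen set for 10 in TM175, 8 in TM180 and 11 between the lines. None was called by limma without covariate, where the counts for the chosen sets were also 0. Psmd4, the ubiquitin receptor, had -0.15 in TM175 from its brightest set and 0.34 from another. Psmd9 had -0.11 and 0.35. A dim set of Psma1 gave -0.45 in TM175 and -0.43 in TM180 (adjusted p of 0.167 and 0.0727, and 0.0273 in TM180 with extract type).

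The genes that serve the proteasome were described through 7 lists, in which limma without covariate called 0 genes in any comparison. At an unadjusted p under 0.05 the lists, in the order below, held 2, 0, 0, 5, 2, 1 and 3 genes in TM175, beside 13% of all probe sets, and 0, 0, 0, 1, 0, 1 and 2 in TM180, beside 9.34%. In TM175 6 of 7 assembly factors lay below 0 (median -0.15), 6 of 8 proteasome-bound ubiquitin receptors and deubiquitinases (-0.20), 5 of 9 transcription factors and Nfe2l1-processing genes (-0.06), 6 of 6 genes of ubiquitin and its activation (-0.31), 4 of 6 muscle ubiquitin ligases (-0.15), 8 of 11 genes of the Vcp unfoldase (-0.11) and 10 of 11 MHC class I genes (-0.20). In TM180 the counts were 5, 5, 4, 3, 4, 7 and 9, with medians of -0.09, -0.02, 0.01, -0.07, -0.02, -0.0020 and -0.18. Without NTG array 2 the median of the MHC class I genes was 0.00090 in TM175 and -0.051 in TM180. Between the pools their median was 0.18 and 0.019, with 5 and 4 of the 11 below 0. Over all genes the share below 0 was 41.6% in TM175 and 49.2% in TM180. Among genes with a mean intensity between 200 and 2000 it was 68.6% and 46.7%. After renewed quantile normalization it was 48.0% of those genes in TM175.

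Among these genes Ube2d1, a ubiquitin-conjugating enzyme, was called lower in both lines by limma with extract type as a term. It read 224.2, 143.3 and 246 in NTG, 97.04, 104.2 and 142.9 in TM175 and 109.7, 120.8, 129.4 and 165.9 in TM180. In that fit it differed from NTG by -0.82 (TM175, adjusted p = 0.0330) and by -0.58 (TM180, adjusted p = 0.0469), and without covariate the adjusted p was 0.206 and 0.324. All TM175 arrays lay below all NTG arrays, with only the TM175 pool, at 142.9, close to the lowest NTG array, at 143.3. The TM180 arrays overlapped with NTG.

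Nfe2l1, the transcription factor that raises proteasome genes when the proteasome is short, had log2 differences of 0.03 in TM175 and 0.21 in TM180 (limma adjusted p of 0.948 and 0.715). It read 1090, 1156 and 899.7 in NTG, 1011, 1141 and 1037 in TM175 and 1276, 1335, 1203 and 1021 in TM180, with overlap. Its relative Nfe2l2 had -0.16 and -0.13. Fbxo32, the muscle ubiquitin ligase atrogin, read 205.6, 188.8 and 200.4 in NTG, 134, 159.2 and 168.3 in TM175 and 202.6, 165.4, 213.8 and 190 in TM180. Its TM175 arrays lay below all NTG arrays (-0.37 ± 0.12, adjusted p = 0.256, not passed).

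Upstream sequences of 36 of the 43 genes were searched on both strands for 7 motifs in the 250 bases before the start, and the shares were set beside those of 27025 genes. The letters ACTTCCG, the core of an ETS factor site, stood in 9 of the 36 (25% against 5.58%), namely Psma4, Psmc1, Psmc2, Psmd6, Psmd8, Psmd12, Psmd13, Psmd14 and Psme4. TGACNNNGC, the core of the antioxidant response element that Nfe2l1 and Nfe2l2 bind, stood in 5 (13.9% against 11.5%), namely Psmb5, Psmb6, Psmc6, Psmd9 and Psmd12. CCAAT stood in 15 (41.7% against 37.5%), the interferon-stimulated element, written as GAAA, any 2 bases and GAAA, in 3 (Psmb3, Psmd4 and Psmd9, 8.33% against 3.46%) and the nuclear respiratory factor site, GCGC then AT then GCGC, in 1 (Psma2, 2.78% against 0.877%). A heat shock element, GAA, any 2 bases, TTC, any 2 bases and GAA, stood in 0 of 36 and in 0.514% of all genes. The motifs can overlap each other, and a match is a run of letters.

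The stretches of Psmc1 and Psmd14 show the ETS letters in capitals, 2 copies in Psmc1, and that of Psmb5 the antioxidant response letters. They lie at chr12:100110129-100110197 on the plus strand, chr2:61711554-61711613 on the plus strand and chr14:54618008-54618067 on the minus strand of GRCm38.p6, upstream of the annotated starts, and are taken from RefSeq.
Psmc1 upstream: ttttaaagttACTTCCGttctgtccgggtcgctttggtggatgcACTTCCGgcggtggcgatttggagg
Psmd14 upstream: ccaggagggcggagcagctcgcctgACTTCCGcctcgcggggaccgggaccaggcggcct
Psmb5 upstream: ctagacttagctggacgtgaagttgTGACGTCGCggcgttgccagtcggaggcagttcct
Psmc1 and Psmd14, among the 9 genes with the ETS letters, had log2 differences from NTG of -0.07 and 0.23 in TM180. A relation of the letters to the differences was not tested.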

How the data were processed

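The authors deposited linear intensities, 1 per probe set and array, for 10 Affymetrix arrays, which RMA produced per the submitters' processing notes. Build, annotation and version are not given in the sources used here. Deposited values of 1000 or more carry a point before the last 3 digits, which was undone by judging each value's digits beside the remaining arrays. In 1045 probe sets 7733 of the 226900 values were so multiplied by 1000, up to 17346. In 239 probe sets, none of them chosen for a member, the level could not be settled and values were kept as written. As a check, the repaired values of settled probe sets were given small noise, written with the point again and read back. Of 222850 values 0 were read back wrongly. Since the repaired values were taken as true, a level misjudged in the deposited values would not show in this check.

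After 64 control probe sets were set aside, 22626 were tested. A single gene symbol was attached to 20380, several to 691 and no symbol to 1555. Log2 values were computed from the deposited intensities and fitted with limma 3.58.1 (lmFit, eBayes) in R 4.3.3, with all 10 arrays, 1 mean per genotype and no covariate. Tests were two-sided, with Benjamini-Hochberg adjustment over all probe sets and a threshold of 0.05. The number of arrays limits the precision. On simulated data unchanged probe sets called numbered 11 for TM175 and 13 for TM180 against NTG, and 6 between the lines. Tables were made with pandas 2.3.3 and numpy 2.4.6 under Python 3.11.15, and plots with matplotlib 3.10.9.

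The members, lists and rules were chosen with earlier results of these data known. Values in every array are given for Psmb5 to Psmb10, Psme1, members called in any comparison, and the highest and lowest member in TM180 of the alpha ring, beta ring, ATPases, other regulatory subunits and activators. List genes are named where called, and Nfe2l1, Nfe2l2, Tap1 and Fbxo32 always. Psmb1, Psmd8, Psmd12, Psme3, Psmd7, Psmd11, B2m and members named for a further probe set or a motif were chosen after their values were seen. RefSeq (GRCm38.p6) gave promoters and gene order.

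Alternatives were leaving out each array, individual extracts only, extract type as a term (also without TM175 array 1 or NTG array 2), a replicate block, limma's array weights, quantile normalization applied again, centring on medians, a filter keeping the brighter probe sets, fits of the compared groups alone and averaging a gene's probe sets.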

Additional observations from a re-analysis of the deposited data

Results flagged for a closer look

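In TM180, the only genotype with 4 arrays, 4 of the 43 genes had an array set apart from the other 3 by Dixon's gap test. The test sets the gap beside the range of the 4 arrays, so a small gap can pass where the other 3 lie close. Among like extracts chance alone meets it in about 1 group in 20, but array 4 was pooled and the others individual. The share of all genes meeting it was not tested, so whether members were flagged unusually often is not known. Psma8, the dim testis subunit, read 15.24 in the pooled array 4 against 18.29 to 18.67. Psmd11 read 1550 in array 4 against 1029 to 1046, and Psme3ip1 read 255.6 there against 328.2 to 333.5. In array 3, an individual heart, Psmb2 read 438.7 against 477 to 480.6. Psmd11 and Psme3ip1 are also among the genes that differed between pooled and individual extracts.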

How the results depend on the processing

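Psme1 was below NTG in both lines under every alternative run, from -0.52 to -0.33 in TM175 and from -0.59 to -0.43 in TM180, and was called in TM180 under 6 of 21 alternatives (limma adjusted p of 0.0179 to 0.186 over them), and in TM175 under 1, array weights (0.0204 to 0.549 over them). H2-Aa stayed called in TM180 under 18 of the 21 and H2-Ab1 under 7. The members called in TM180 numbered 1 with extract type, with array weights, among probe sets above the median, with the mean of a gene's probe sets and with extract type but no TM175 array 1, and 0 to 1 on leaving out an array, in each case Psme1. In TM175 they numbered 16 of 43 with array weights, all lower, where 23.7% of all probe sets were called and 10.2% were called lower. They numbered 3 with extract type but no NTG array 2 (Psma1, Psmb7 and Psmd8, all lower, beside 5.51% of all probe sets called and 3.51% called lower), an alternative chosen after seeing the data. Between the lines 1 member, Psmd8, was called with array weights, beside 10.3% of all probe sets. Those weights were 3.24 for TM175 array 2 and 2.92 for NTG array 1, and the cause of the 16 calls was not tested.

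Calls over all probe sets in TM175 (2) numbered 195 with extract type, 5361 with array weights, 1 with median centring, 0 with only the groups compared (2184 at an unadjusted p under 0.05), 14 and 1247 with extract type but no TM175 array 1 or no NTG array 2, and 1 to 2 on leaving out an array. In TM180 (114) they numbered 44 in individual extracts, 454 with extract type, 754 with array weights, 55 with only the groups compared, 484 and 233 with extract type but no TM175 array 1 or no NTG array 2, and 8 to 135 on leaving out an array, with 8, 39 and 25 when NTG array 1, 2 or 3 was left out, 17, 26 and 57 when it was TM180 array 2, 3 or 4, and 62 when it was TM175 array 2. Between the lines (0, with 3001 at an unadjusted p under 0.05) they numbered 6 with extract type, 2341 with array weights and 0 to 1 on leaving out an array.

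Of the 9 correlations between deviations of same-numbered arrays 6 were over 0.1, and the range was -0.533 to 0.707. Since not every pair deviated together in any comparison, the numbers were not taken to pair the samples. With a replicate block the calls numbered 1, 32 and 0 and the members called 0 in each comparison, and Psmb4 in TM180 stood at 0.012 and Psmd1 between the lines at -0.10.

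The median of the standard subunits moved to -0.030 in TM175 and 0.028 between the lines with renewed quantile normalization, and ran from -0.25 to -0.10 and from 0.10 to 0.22 on leaving out an array. With array weights it was -0.29 in TM175. In TM180 it ran from -0.080 to 0.032. The median of the immunosubunits in TM175 was -0.88 in individual extracts and -0.68 to -0.14 on leaving out an array, in TM180 -0.83 to -0.17, and between the lines -0.21 to 0.12.

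Some small differences changed sign, none of them called. With quantile normalization Psma5, Psmb4, Psmc5, Psmd14 and Psme4 in TM175 gave 0.028, 0.054, 0.10, 0.15 and 0.032, and Psmb4, Psmb5, Psmb6, Psmd1 and Psme4 between the lines -0.079, -0.098, -0.14, -0.12 and -0.090. With array weights Psmc5 in TM175 gave 0.016, Psma5 and Psmb10 in TM180 -0.0044 and 0.12, and Psmb8, Psmb9 and Psme4 between the lines 0.075, 0.20 and -0.021. In individual extracts Psmd14 in TM175 gave 0.057, and Psmb8 and Psmb9 between the lines 0.067 and 0.13. With extract type but no TM175 array 1 Psmc5 in TM175 gave 0.042, and Psmb5 and Psmb6 between the lines -0.064 and -0.031. With extract type but no NTG array 2 Psmb10 in TM180 gave 0.14. On leaving out an array the range crossed 0 for Psmc5 (-0.12 to 0.029) and Psmd14 (-0.053 to 0.063) in TM175, for Psmb4 (-0.087 to 0.045), Psmb10 (-0.14 to 0.14), Psmc1 (-0.27 to 0.056) and Psme4 (-0.17 to 0.054) in TM180, and between the lines for Psmb5 (-0.041 to 0.15), Psmb6 (-0.061 to 0.092), Psmb8 (-0.21 to 0.12), Psmb9 (-0.35 to 0.052), Psmd1 (-0.097 to 0.17) and Psme4 (-0.042 to 0.18).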
